A study of Morchella sextelata with 15 samples.

Results

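Of the 20602 transcripts measured in mycelium of the black morel Morchella sextelata, 154 stood higher in cultures with either of 2 dinitroaniline herbicides than in cultures with either of 2 chloroacetanilide herbicides. They were chosen by their measured FPKM, a fragment number divided by the length of the transcript and the size of the library. The smaller of the trifluralin and pendimethalin means had to be at least 5 FPKM and at least 1.5 times the larger of the S-metolachlor and acetochlor means. All 6 dinitroaniline libraries had to lie above all 6 chloroacetanilide libraries, and the means of the chloroacetanilides had to be within 4-fold of each other. The 100 transcripts with the highest control mean were left out. The control libraries entered the choice in no other way, so their level is described for each transcript, although in many transcripts it does not tell a rise from a fall. With the classes exchanged, the same conditions chose 60 transcripts.

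The libraries came from wild-type mycelium kept for 5 days at 20 °C on potato dextrose agar. There were 5 groups of 3 libraries, of which 1 group was a control with no herbicide in the medium and the others had trifluralin, pendimethalin, S-metolachlor or acetochlor. Each herbicide was present at 10 times its normal application concentration, so the doses are equal as multiples of field rates and unequal as concentrations. Nothing in the labels says that replicates came from separate cultures, and p-values then measure only the spread between these libraries, which may be technical. In bulk RNA, fewer cells of a type and less RNA per cell cannot be told apart. Library totals ran from 22923346 to 24766457 expected counts.

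Morchella sextelata is an ascomycete grown for its fruiting bodies, and its mycelium is the network of filaments that feeds on the substrate. Dinitroanilines bind plant tubulin and stop microtubules from forming, whereas chloroacetanilides inhibit the elongases that build very-long-chain fatty acids in plants. The transcripts carry assembly names only. None of those names occurs in the reference table of 13182 genes, so no function is given for any transcript, and tubulins, elongases, detoxifying enzymes and transporters could not be counted among the 154.

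The dinitroaniline libraries held these transcripts at a median of 38.5 FPKM with trifluralin (quartiles 16.5 to 73.4, over group means) and 37.1 FPKM with pendimethalin (16.6 to 75.7). The medians were 13.5 FPKM with S-metolachlor (5.16 to 25.5) and 18.0 FPKM with acetochlor (6.35 to 35.5). Control lay between, at a median of 23.9 FPKM (9.24 to 49.7). The order of these medians between the classes was fixed by the choice and has no test. The ratio of the smaller dinitroaniline mean to the larger chloroacetanilide mean had a median of 1.85 (quartiles 1.63 to 2.24). It reached 2 in 56 transcripts, 3 in 19 and 5 in 7, with a highest value of 13.4. The gap between single libraries was narrower, since the lowest dinitroaniline library stood at a median of 1.17 times the highest chloroacetanilide library (quartiles 1.07 to 1.30).

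At the limits of the choice, the member nearest the ratio limit had a ratio of 1.50309 and the nearest transcript outside it 1.49676. The lowest smaller dinitroaniline mean was 5.12 FPKM inside and 4.90 FPKM outside. For the separation of single libraries, the member nearest the limit had a lowest dinitroaniline library at 1.00089 times the highest chloroacetanilide library, and the nearest transcript outside was at 0.998. The widest fold between the chloroacetanilide means was 3.76 inside, and the nearest outside was 4.57. Transcripts that failed a single condition numbered 252 for the separation of libraries, 201 for the ratio, 39 for the floor, 8 for the 4-fold limit and 0 for the 100 left out.

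A few libraries set the borders. Pendimethalin replicate 3 was the lowest dinitroaniline library for 69 of the 154 transcripts, ahead of pendimethalin replicate 2 with 39 and trifluralin replicate 1 with 24. On the other side, acetochlor replicate 3 was the highest chloroacetanilide library for 81 and acetochlor replicate 2 for 35. The S-metolachlor libraries together held that place for 26 only. Without pendimethalin replicate 3 the conditions chose 316 transcripts, 148 of them among the 154, and without acetochlor replicate 3 they chose 304, which included all 154.

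**Figure D1:**
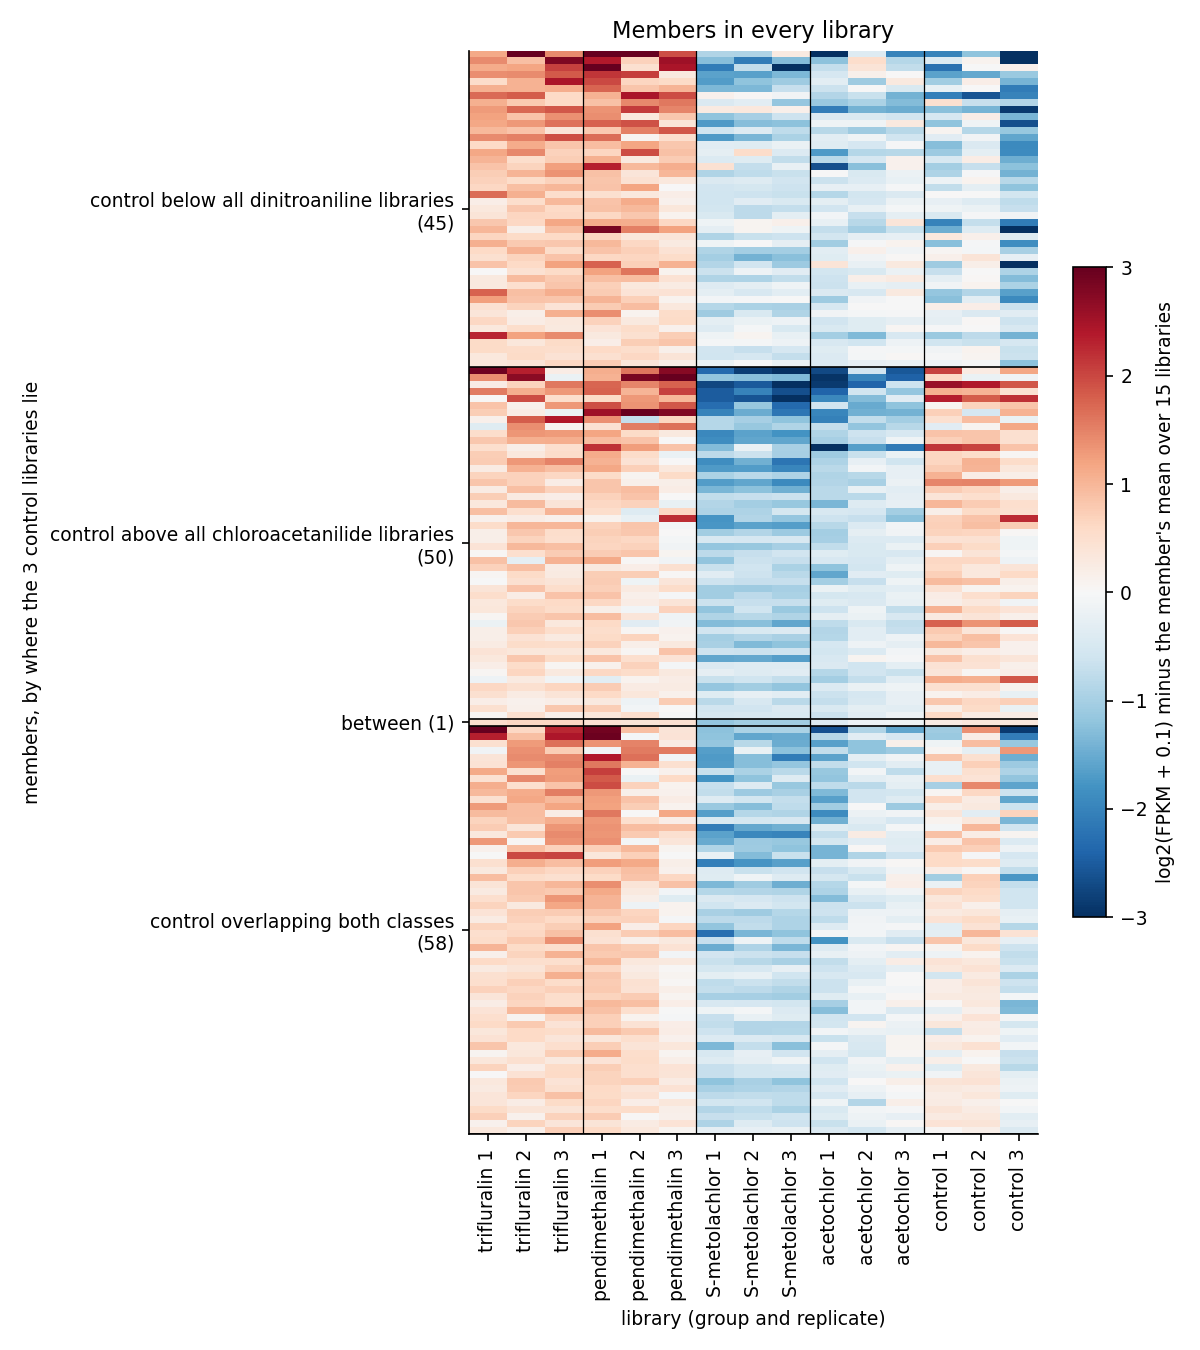
Level of each of the 154 transcripts (rows) in each of the 15 libraries (columns), as log2(FPKM + 0.1) minus the transcript's mean over the libraries, with rows grouped by where the control libraries lie and colours saturating at 3 in either direction. The dinitroaniline columns are above the chloroacetanilide columns in every row, as chosen, and control replicate 3 is lower than the other control columns in most rows.

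The median deviation from each transcript's own mean over the 15 libraries, on the log2(FPKM + 0.1) scale, gives the pattern by library. It was 0.50, 0.68 and 0.70 in the trifluralin libraries and 0.81, 0.56 and 0.30 in the pendimethalin libraries. In the S-metolachlor libraries it was -0.83, -0.74 and -0.81, and in the acetochlor libraries -0.65, -0.40 and -0.23. The 3 S-metolachlor libraries were thus the lowest and close to each other, whereas the acetochlor libraries were spread out and acetochlor replicate 3 came nearest to control. In control the median deviation was 0.19, 0.29 and -0.39, so control replicate 3 stood on the chloroacetanilide side of the other controls and below acetochlor replicate 3.

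The replicate spread of these transcripts was close to that of the 10869 transcripts with every group mean at 1 FPKM or more, except in control. The highest library stood at a median of 1.79 times the lowest in control, against 1.56 for the wider set. The corresponding ratios were 1.45 against 1.44 for trifluralin, 1.69 against 1.59 for pendimethalin, 1.21 against 1.23 for S-metolachlor and 1.48 against 1.55 for acetochlor.

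Set against the control libraries, the 154 transcripts fell into 4 sets. In 45 (29.2%), all 3 control libraries lay below all 6 dinitroaniline libraries and not above all 6 chloroacetanilide libraries. In 50 (32.5%), all control libraries lay above all chloroacetanilide libraries and not below all dinitroaniline libraries. A single transcript had its control libraries between the classes, apart from both. In the remaining 58 (37.7%), the control libraries overlapped both classes. The same places were not counted over the whole table, so nothing is read from the sizes of the sets.

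In the set of 45, the smaller dinitroaniline mean was a median of 2.53 times the control mean (1.31 to 20.6), and the control mean was 0.843 times the larger chloroacetanilide mean (0.203 to 1.37). Median levels were 28.8 FPKM with trifluralin, 33.8 with pendimethalin, 10.2 with S-metolachlor, 11.3 with acetochlor and 11.9 in control. In the set of 50 the control mean was a median of 2.12 times the larger chloroacetanilide mean (1.27 to 15.9), and the smaller dinitroaniline mean was 0.987 times the control mean (0.342 to 3.04). Here the median levels were 44.6, 44.9, 16.3, 21.1 and 43.5 FPKM in the same order. Since control libraries defined the sets, the medians are descriptions, and single transcripts ranged widely around them. In the 58 overlapping transcripts the respective ratios were 1.37 for the smaller dinitroaniline mean over control and 1.30 for control over the larger chloroacetanilide mean.

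By group means alone, the control mean lay strictly between the classes in 86 transcripts. It equalled or exceeded the smaller dinitroaniline mean in 28 and exceeded both dinitroaniline means in 16. It was at or under the larger chloroacetanilide mean in 40 and under both chloroacetanilide means in 16. Among the 5 groups, S-metolachlor had the lowest mean in 112 transcripts, acetochlor in 26 and control in 16. The highest mean was in trifluralin for 77, in pendimethalin for 61 and in control for 16.

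**Figure D2:**
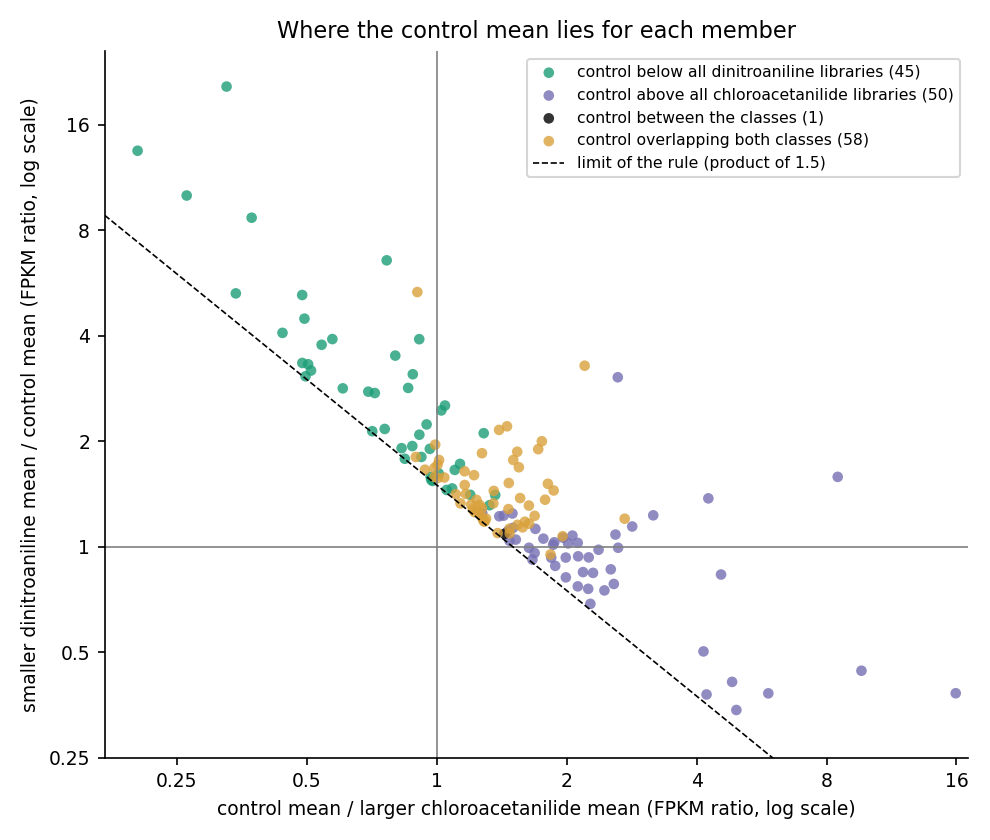
Each point is 1 of the 154 transcripts, placed by the control mean over the larger chloroacetanilide mean (x) and the smaller dinitroaniline mean over the control mean (y), both FPKM ratios on log scales, with colours for the 4 sets by control libraries and a dashed line at the limit of the choice, where the product is 1.5. The 45 transcripts with control below the dinitroanilines run up the left side to 20.6, and the 50 with control above the chloroacetanilides run out along the bottom to 15.9.

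The sets depend on the control replicates, which differed. Control replicate 1 lay at or above the lowest dinitroaniline library in 81 of the 154 transcripts and at or below the highest chloroacetanilide library in 54. Control replicate 2 did so in 94 and 34, and control replicate 3 in 40 and 100. Of the 58 overlapping transcripts, 55 had control replicate 3 at or below the highest chloroacetanilide library, whereas 49 had control replicate 2 at or above the lowest dinitroaniline library. Control replicate 3 was the lowest control library in 126 of the 154 transcripts. Without it, 39 transcripts had control below the dinitroanilines, 87 had control above the chloroacetanilides and 21 overlapped both. Without control replicate 2 the overlapping set held 32 and the set with control below held 69. The scaling factor that TMM gave the control libraries was 0.901, 0.982 and 0.830, and FPKM do not carry this scaling. Over all 15 libraries the factor ran from 0.830 to 1.09. The FPKM of each library, herbicide libraries included, was then divided by its own factor. Control was below in 38 of the 154, above in 72, between in 2 and overlapping in 42. After this division the conditions themselves chose 122 transcripts, 114 of them among the 154.

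**Figure D3:**
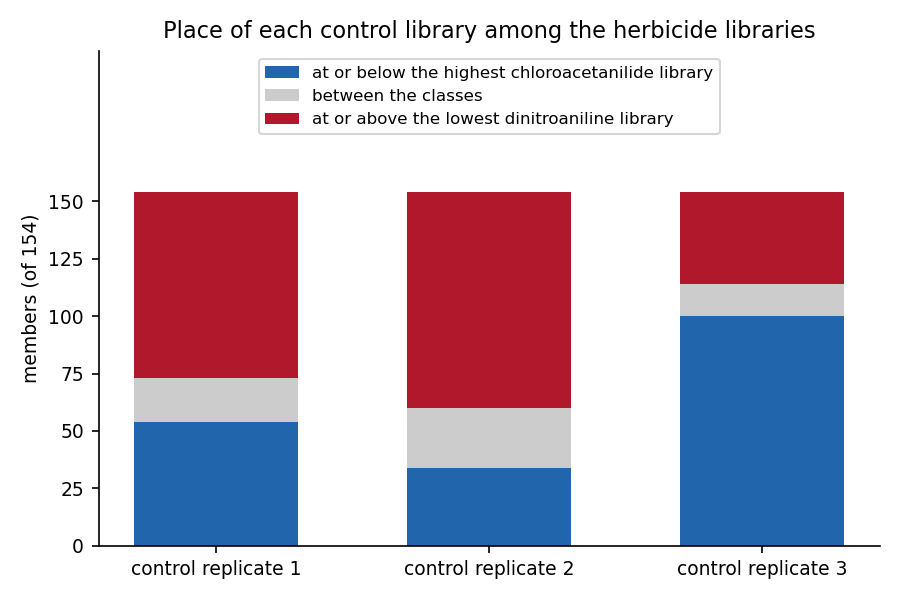
Number of the 154 transcripts (y) in which each control library (x) lay at or below the highest chloroacetanilide library, between the classes, or at or above the lowest dinitroaniline library. Control replicate 3 was on the chloroacetanilide side in 100 transcripts and control replicates 1 and 2 in 54 and 34.

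Each herbicide was also compared with control by edgeR's quasi-likelihood test on the rounded expected counts of all 17555 transcripts that passed a filter on low counts, which included all 154. A transcript was called at a Benjamini-Hochberg adjusted p under 0.05 over the whole table. The choice of the 154 used the herbicide libraries and favours high dinitroaniline and low chloroacetanilide values, so their counts of calls are given beside the whole table and nothing is read from the difference. The 4 comparisons share the same 3 control libraries.

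With trifluralin, 32 of the 154 were called higher (20.8%) and 5 lower (3.25%), where the whole table had 7.68% higher and 7.00% lower. Pendimethalin gave 30 higher (19.5%) and 3 lower (1.95%), against 7.35% and 5.54% in the whole table. S-metolachlor gave 5 higher (3.25%) and 101 lower (65.6%), against 24.4% and 21.7%. For acetochlor the counts were 2 higher (1.30%) and 47 lower (30.5%), against 5.26% and 4.46%. The median log2 fold change of the 154 was 0.37 for trifluralin (range -1.63 to 4.21) and 0.32 for pendimethalin (range -1.78 to 5.18). It was -1.07 for S-metolachlor (range -5.41 to 2.06) and -0.58 for acetochlor (range -4.25 to 1.27). Over all transcripts tested the medians were -0.01, 0.02, 0.09 and -0.00. On log2(FPKM + 0.1), without the scaling factors, the medians of all transcripts moved to 0.17, 0.19, 0.33 and 0.09, and those of the 154 to 0.59, 0.53, -0.80 and -0.43.

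Leaving out single libraries changed these counts. The rises with trifluralin numbered 21 without trifluralin replicate 2, 16 without trifluralin replicate 3, 16 without control replicate 1 and 13 without control replicate 3. Those with pendimethalin numbered 17 without control replicate 1 and 16 without control replicate 3. Removing either of these control libraries therefore lowered the count for both dinitroanilines. Other omissions raised the calls, since those in either direction ran from 16 to 45 with trifluralin and from 19 to 44 with pendimethalin. With acetochlor 29 were called without acetochlor replicate 1 and 25 without control replicate 1. The total with S-metolachlor ran from 91 to 113.

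Transcript by transcript, 24 of the 154 were called higher with both dinitroanilines and 38 with at least 1 of them. Both chloroacetanilides were called lower in 47, and at least 1 in 101. A chloroacetanilide fall with no dinitroaniline rise was seen in 95 transcripts, a dinitroaniline rise with no chloroacetanilide fall in 32, and both kinds in 6. In 21 no herbicide was called. The largest pattern was a call with S-metolachlor alone, lower in 50, followed by both chloroacetanilides lower and no other call in 40. Of the 101 falls with S-metolachlor, 54 had no call for a fall with acetochlor. That count compares calls and not levels, and the direct comparison of both chloroacetanilides is given further on. The patterns were not counted over the whole table, so nothing is read from their sizes. Of all transcripts tested, 21.7% were called lower with S-metolachlor and 4.46% with acetochlor. Rises were called in 7.68% with trifluralin and 7.35% with pendimethalin.

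**Figure D4:**
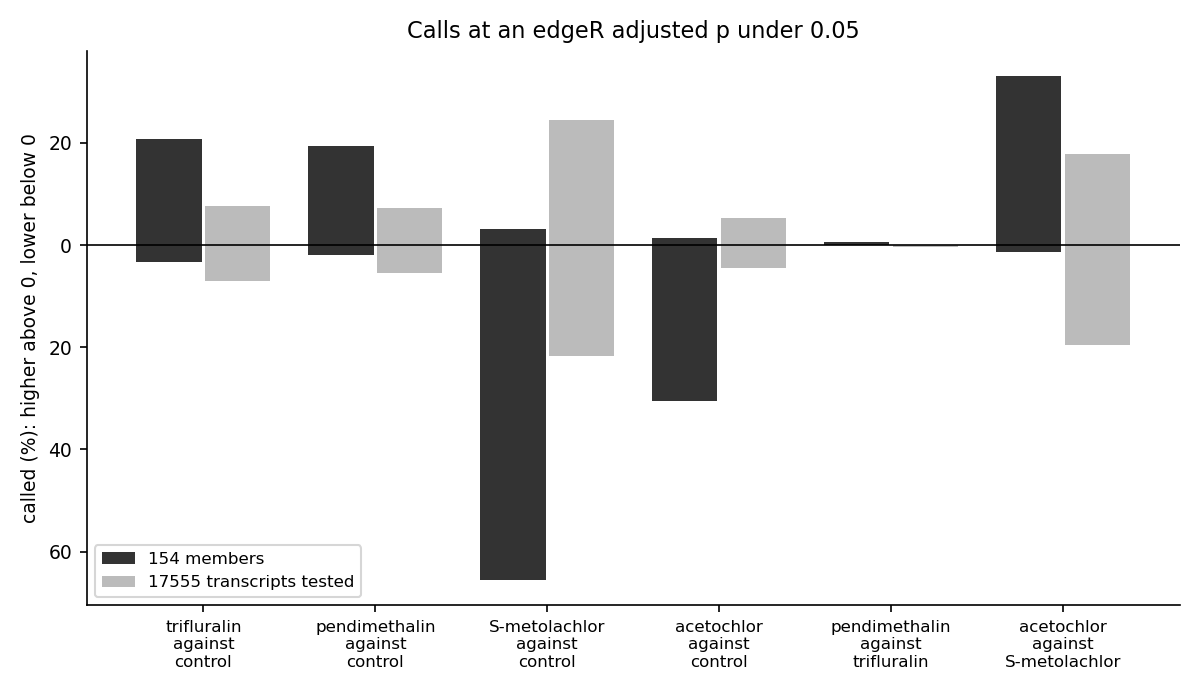
Share called (y, percent) in each of 6 comparisons (x), higher above 0 and lower below 0, for the 154 transcripts and for the 17555 tested. The 154 reach 65.6% lower with S-metolachlor against control and 33.1% higher with acetochlor against S-metolachlor, where the whole table has 21.7% and 17.9%. The choice used the herbicide libraries, so nothing is read from these differences.

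The calls followed the sets by control level, as both rest on the same control and herbicide libraries. In the sets with control below or above, the control libraries lay apart from a class by definition, which favours calls for that class. Nothing is therefore read from the counts by set. Among the 45 transcripts with control below the dinitroanilines, 30 were called higher with trifluralin and 28 with pendimethalin. In the same 45, S-metolachlor was called higher in 5 and lower in 8, and acetochlor was called higher in 2 and lower in 0. All 50 transcripts with control above the chloroacetanilides were called lower with S-metolachlor and 44 with acetochlor. For the dinitroanilines that set had 5 falls with trifluralin, 3 falls with pendimethalin and 2 rises with pendimethalin. Of the 58 overlapping transcripts 42 were called lower with S-metolachlor, 2 lower with acetochlor, 2 higher with trifluralin and 0 with pendimethalin.

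The widest rise with pendimethalin was in TRINITY_DN5254_c0_g2_i1_3, a transcript of 1381 bases. Its FPKM was 69.4, 68.4 and 20.6 with pendimethalin, 11.7, 54.0 and 14.4 with trifluralin and 1.24, 2.24 and 0.411 in control. With S-metolachlor it was 2.79, 2.74 and 6.44, and with acetochlor 0.124, 4.02 and 1.24. All dinitroaniline libraries lay above all others, but they differed several-fold from each other, whereas the S-metolachlor libraries lay above control and the acetochlor libraries overlapped it. The log2 fold change against control was 5.18 with pendimethalin (SE 1.05, edgeR adjusted p = 0.00869). With trifluralin it was 4.21 (SE 1.01, edgeR adjusted p = 0.017), and 3.16 without trifluralin replicate 2. The trifluralin call was lost without trifluralin replicate 2, control replicate 1 or control replicate 3, and the adjusted p ran from 6.67e-05 to 0.0787 over all alternatives.

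TRINITY_DN253_c0_g1_i1_1 (2458 bases) rose with 3 of the 4 herbicides. Its FPKM was 21.4, 23.4 and 9.98 with trifluralin, 13.6, 36.4 and 25.6 with pendimethalin, 7.15, 6.78 and 6.14 with S-metolachlor, 3.50, 4.08 and 2.41 with acetochlor and 1.51, 1.002 and 1.55 in control. All herbicide libraries were above all control libraries, with the dinitroanilines highest. Its log2 fold change was 4.02 with pendimethalin (SE 0.46, edgeR adjusted p = 0.000677), 3.55 with trifluralin (0.45, 0.000668) and 2.06 with S-metolachlor (0.43, 0.00198). With acetochlor it was 1.20 (SE 0.42, edgeR adjusted p = 0.0953), which missed the threshold.

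TRINITY_DN15381_c0_g1_i1_1 (2644 bases) set S-metolachlor apart from acetochlor. Its FPKM was 146, 199 and 217 with trifluralin, 152, 258 and 166 with pendimethalin and 71.8, 74.2 and 66.3 with S-metolachlor, whereas acetochlor had 14.1, 22.4 and 21.3 and control 24.9, 22.8 and 8.13. The acetochlor libraries overlapped control, and the S-metolachlor libraries lay above both. The log2 rise was 3.15 with trifluralin (SE 0.36, edgeR adjusted p = 0.000354), 3.20 with pendimethalin (0.36, 0.000611) and 1.73 with S-metolachlor (0.34, 0.0014). Acetochlor against S-metolachlor gave -1.76 (SE 0.34, edgeR adjusted p = 0.00181), 1 of only 2 falls in that comparison.

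The other fall was in TRINITY_DN10490_c0_g1_i1_3 (1141 bases), a transcript of the set with control above the chloroacetanilides. Acetochlor had 0.448, 3.27 and 2.31 FPKM and S-metolachlor 4.16, 9.04 and 5.23 FPKM, so that the groups did not overlap. Control was at 46.4, 42.7 and 19.0 FPKM, trifluralin at 14.7, 11.8 and 14.7 and pendimethalin at 47.8, 25.1 and 18.8. On the log2 scale acetochlor against S-metolachlor gave -1.50 (SE 0.55, edgeR adjusted p = 0.048). That call was lost under 8 of 13 alternatives, among them the omission of any S-metolachlor replicate or of acetochlor replicate 1 or 3, with adjusted p from 0.0203 to 0.173. Against control, acetochlor gave -4.25 (SE 0.60, edgeR adjusted p = 0.0015; -4.90 without acetochlor replicate 2) and S-metolachlor -2.75 (0.56, 0.00169).

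A transcript of 2384 bases, TRINITY_DN8297_c0_g1_i4_1, was 1 of 2 called higher with all 4 herbicides. Its FPKM was 93.0, 51.2 and 58.3 with trifluralin, 46.1, 36.0 and 37.1 with pendimethalin, 22.1, 19.4 and 22.0 with S-metolachlor, 20.0, 19.4 and 33.6 with acetochlor and 12.1, 14.8 and 8.71 in control. Every herbicide library lay above every control library, and the trifluralin libraries lay above the pendimethalin ones. The log2 fold changes were 2.33 with trifluralin (SE 0.25, edgeR adjusted p = 0.000215) and 1.55 with pendimethalin (0.24, 0.00267). Acetochlor gave 0.93 (SE 0.24, edgeR adjusted p = 0.0284), lost without acetochlor replicate 1 or 3, without control replicate 1 or 3 or with only those groups in the fit (0.0052 to 0.132). S-metolachlor gave 0.63 (SE 0.24, edgeR adjusted p = 0.0439), lost under 7 of 13 alternatives, among them the omission of any S-metolachlor replicate, of control replicate 1 or of control replicate 3 (0.0175 to 0.2).

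TRINITY_DN8071_c1_g14_i1_3 had the second highest ratio in the set with control below the dinitroanilines, at low levels. Its FPKM was 4.69, 3.29 and 12.4 with trifluralin, 9.22, 2.79 and 10.3 with pendimethalin, 0.643, 0.321 and 0.625 with S-metolachlor, 0.674, 2.48 and 0.895 with acetochlor and 1.25, 1.85 and 0 in control. The dinitroaniline libraries lay above the control libraries, yet neither herbicide was called. The log2 fold change was 2.51 with trifluralin (SE 0.90, edgeR adjusted p = 0.0773) and 2.65 with pendimethalin (0.90, 0.07).

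**Figure D5:**
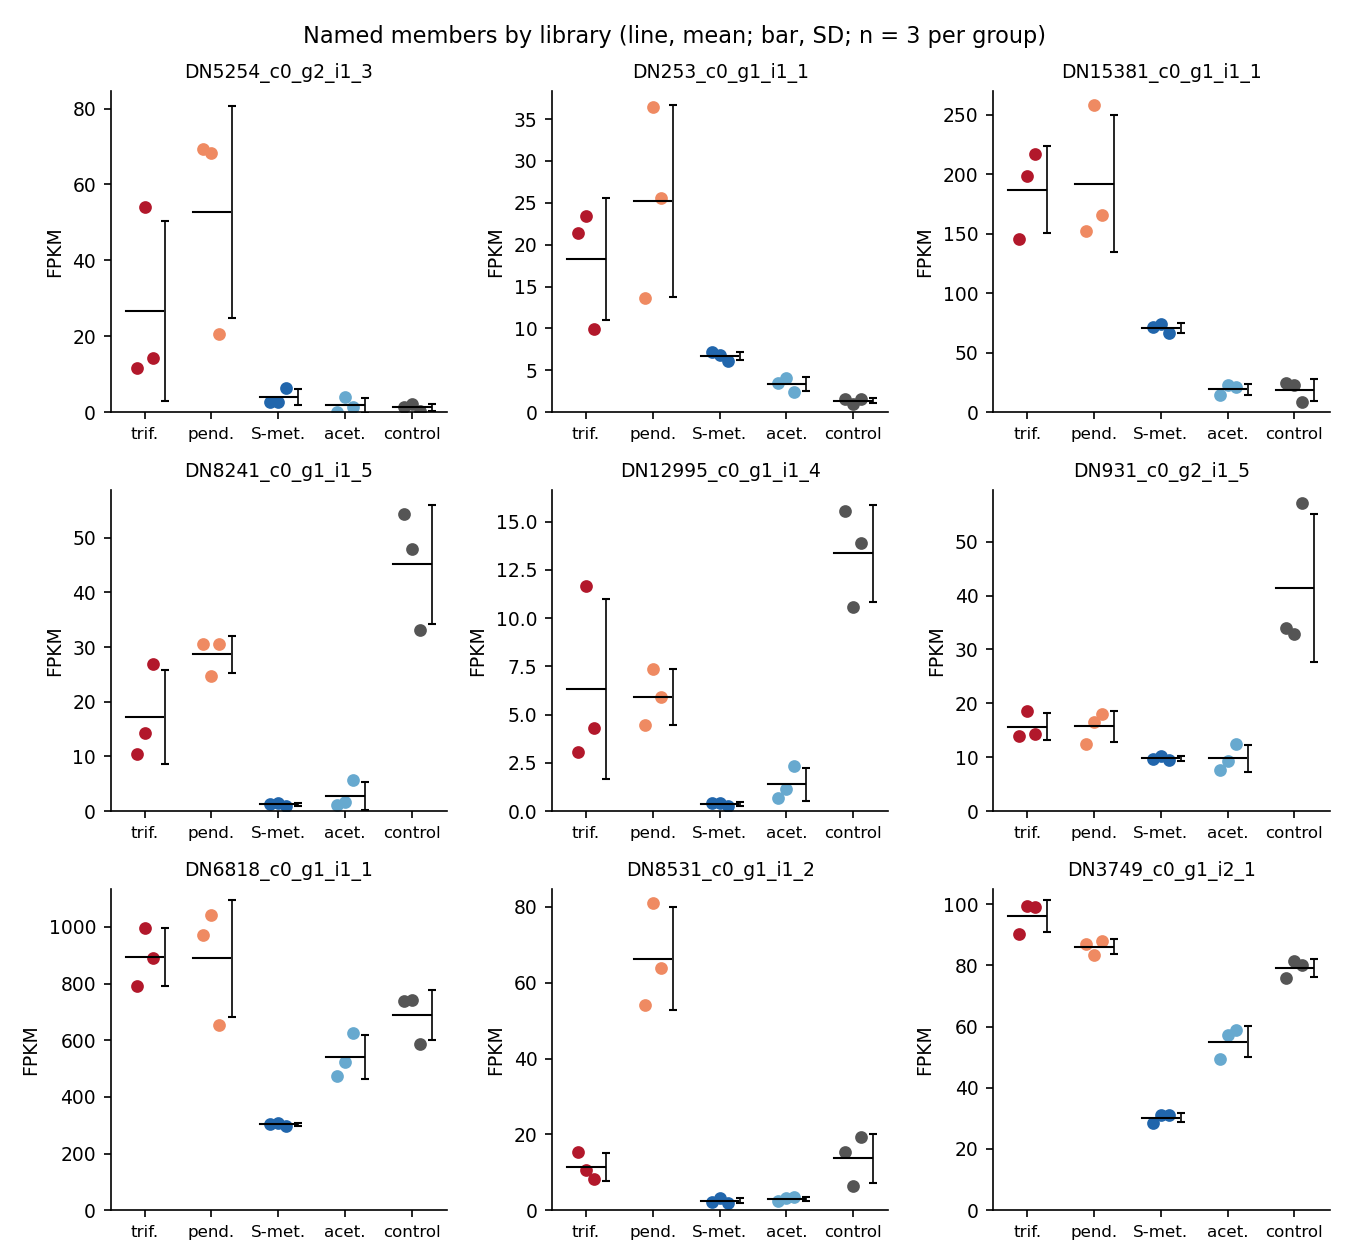
FPKM (y, from 0) of 9 named transcripts in the 3 libraries of each group (x), with points for libraries, a line for the mean and a bar for the SD. TRINITY_DN5254_c0_g2_i1_3, TRINITY_DN253_c0_g1_i1_1 and TRINITY_DN15381_c0_g1_i1_1 are high with the dinitroanilines against a low control, whereas TRINITY_DN8241_c0_g1_i1_5, TRINITY_DN12995_c0_g1_i1_4 and TRINITY_DN931_c0_g2_i1_5 are highest in control.

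The deepest fall with S-metolachlor was in TRINITY_DN8241_c0_g1_i1_5 (1782 bases). Control was at 54.3, 48.0 and 33.2 FPKM, pendimethalin at 30.6, 24.8 and 30.6 and trifluralin at 10.5, 14.3 and 26.9, against 1.28, 1.48 and 0.924 with S-metolachlor and 1.14, 1.61 and 5.75 with acetochlor. Every herbicide library was below every control library, and the chloroacetanilide libraries were far lower than the rest. Its log2 fold change was -5.41 with S-metolachlor (SE 0.54, edgeR adjusted p = 1.35e-05) and -4.15 with acetochlor (0.51, 0.000553; -5.06 without acetochlor replicate 3). It was -1.59 with trifluralin (SE 0.46, edgeR adjusted p = 0.0351) and -0.85 with pendimethalin (0.45, 0.232). The trifluralin call was lost without trifluralin replicate 1 or 2, without control replicate 1 or 3 and in limma on log2(FPKM + 0.1), with adjusted p from 0.0062 to 0.115.

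TRINITY_DN12995_c0_g1_i1_4 (2112 bases) fell almost as far. It stood at 15.6, 10.6 and 13.9 FPKM in control, 3.04, 11.7 and 4.30 with trifluralin and 4.45, 7.36 and 5.94 with pendimethalin. With S-metolachlor it was at 0.443, 0.408 and 0.255 FPKM and with acetochlor at 0.693, 1.14 and 2.33. Trifluralin replicate 2 overlapped control, and the S-metolachlor libraries lay below all acetochlor libraries. On the log2 scale the change was -5.38 with S-metolachlor (SE 0.59, edgeR adjusted p = 2.35e-05; -3.38 in limma on log2(FPKM + 1), whose added constant shrinks changes of low transcripts) and -3.42 with acetochlor (0.53, 0.0022). Acetochlor against S-metolachlor gave 1.96 (SE 0.53, edgeR adjusted p = 0.0124), the largest rise in that comparison. It was lost without S-metolachlor replicate 3, without acetochlor replicate 3 and in limma on log2(FPKM + 1), with adjusted p from 0.00167 to 0.128.

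All 4 herbicides were called lower in 3 of the 154 transcripts, and 2 of these had the largest falls with pendimethalin. TRINITY_DN4640_c0_g1_i1_1 (3501 bases) was at 753, 566 and 788 FPKM in control, 197, 388 and 277 with trifluralin and 337, 176 and 207 with pendimethalin. It was at 90.6, 92.5 and 75.9 FPKM with S-metolachlor and 130.2, 162 and 134 with acetochlor. No herbicide library reached the lowest control library. Against control the log2 change was -1.51 with trifluralin (SE 0.29, edgeR adjusted p = 0.00689), -1.78 with pendimethalin (0.29, 0.00335), -3.26 with S-metolachlor (0.31, 9.45e-06) and -2.42 with acetochlor (0.30, 0.000581).

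TRINITY_DN931_c0_g2_i1_5 (1968 bases) was at 34.0, 32.9 and 57.2 FPKM in control, 14.0, 18.6 and 14.4 with trifluralin and 12.4, 16.6 and 18.1 with pendimethalin. S-metolachlor had 9.70, 10.3 and 9.42 FPKM and acetochlor 7.58, 9.38 and 12.4. In this transcript the dinitroaniline level was nearer to the chloroacetanilide level than to control, and acetochlor replicate 3 lay just under the lowest pendimethalin library. Log2 fold changes were -1.63 with trifluralin (SE 0.27, edgeR adjusted p = 0.00325), -1.62 with pendimethalin (0.27, 0.00379), -2.33 with S-metolachlor (0.28, 4.49e-05) and -2.23 with acetochlor (0.28, 0.00061). With only the compared groups in the fit the pendimethalin calls of both these transcripts were lost (edgeR adjusted p = 0.0553 for TRINITY_DN4640_c0_g1_i1_1 and 0.0648 for TRINITY_DN931_c0_g2_i1_5), the highest of ranges that started at 2.11e-07 and 1.22e-06.

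The highest ratio of all 154, at 13.4, belonged to TRINITY_DN4877_c0_g1_i1_1 (1312 bases). Its FPKM was 17.1, 11.4 and 2.54 with trifluralin, 4.71, 6.81 and 14.9 with pendimethalin and 9.08, 2.61 and 5.00 in control. With S-metolachlor it was at 0.348, 0.220 and 0.123, and with acetochlor at 0.249, 1.43 and 0.288. Control overlapped both dinitroanilines and lay above every chloroacetanilide library. With S-metolachlor the log2 change was -4.77 (SE 0.95, edgeR adjusted p = 0.00149). With acetochlor it was -3.19 (SE 0.86, edgeR adjusted p = 0.034) and -4.57 without acetochlor replicate 2, and the call was lost without acetochlor replicate 1 or 3, without control replicate 1 or 3, with the replicate block and with only those groups in the fit (0.00145 to 0.123).

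TRINITY_DN3719_c0_g1_i2_2 (1674 bases) was next in that set. Its FPKM was 160.3, 402 and 53.6 with trifluralin, 127, 445 and 492 with pendimethalin, 26.9, 25.8 and 24.4 with S-metolachlor, 7.95, 15.4 and 11.3 with acetochlor and 92.2, 53.6 and 56.6 in control. The pendimethalin libraries lay above control and the chloroacetanilide libraries below it, while the trifluralin libraries ranged from the control level to several times above. The log2 changes were 2.21 with pendimethalin (SE 0.64, edgeR adjusted p = 0.0389), -1.62 with S-metolachlor (0.63, 0.0493) and -2.65 with acetochlor (0.65, 0.0234). Each of these calls was lost under some alternatives. The pendimethalin call was lost under 7 of 13 alternatives (0.00434 to 0.143), among them the omission of pendimethalin replicate 2, pendimethalin replicate 3 or any control replicate. The S-metolachlor call was lost under 10 (0.00158 to 0.129), among them the omission of any S-metolachlor or control replicate. The acetochlor call was lost without acetochlor replicate 1, acetochlor replicate 3 or control replicate 1 (0.000426 to 0.0859).

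The transcript with control between the classes, TRINITY_DN3749_c0_g1_i2_1 (3644 bases), had replicates close to each other. Trifluralin was at 90.2, 99.5 and 99.0 FPKM, pendimethalin at 87.0, 83.3 and 87.9, control at 75.7, 81.5 and 80.0, acetochlor at 49.2, 57.3 and 58.7 and S-metolachlor at 28.5, 31.0 and 31.0. The groups stood in this order with no overlap. The log2 fold change was -1.61 with S-metolachlor (SE 0.13, edgeR adjusted p = 3.1e-06) and -0.63 with acetochlor (0.13, 0.00965; 0.0913 with only those groups in the fit, the highest of a range from 4.31e-08). The dinitroanilines were not called, at 0.08 with trifluralin (SE 0.13, edgeR adjusted p = 0.697) and -0.08 with pendimethalin (0.13, 0.724). After division by the scaling factors, control no longer lay between the classes.

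TRINITY_DN8730_c1_g11_i1_1 (2372 bases), with the highest trifluralin mean of the 154, varied widely among replicates and was called with no herbicide. Its FPKM was 2021, 239 and 744 with trifluralin, 1145, 289 and 203 with pendimethalin and 74.4, 403 and 21.0 in control, whereas S-metolachlor had 65.7, 80.7 and 80.0 and acetochlor 25.2, 82.6 and 52.5. The trifluralin mean of 1001 ± 919 FPKM (SD, n = 3) rests on its first replicate. The log2 fold change was 2.51 (SE 0.98, edgeR adjusted p = 0.101) with trifluralin and 1.58 (edgeR adjusted p = 0.3) with pendimethalin.

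The highest mean over the 6 dinitroaniline libraries, 891 FPKM, was that of TRINITY_DN6818_c0_g1_i1_1 (1860 bases). Its FPKM was 792, 998 and 889 with trifluralin, 970.3, 1043 and 653 with pendimethalin, 739, 741 and 587 in control, 474, 524 and 627 with acetochlor and 305, 307 and 297 with S-metolachlor. S-metolachlor stood alone below all other libraries, and acetochlor replicate 3 was above the lowest control library. The log2 fold change was -1.40 with S-metolachlor (SE 0.19, edgeR adjusted p = 0.000102). Acetochlor at -0.45 (edgeR adjusted p = 0.148), trifluralin at 0.18 (0.534) and pendimethalin at 0.17 (0.588) were not called.

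The dinitroanilines differ in structure in that trifluralin carries a trifluoromethyl group on the ring and a dipropylamine, and pendimethalin ring methyl groups and a branched secondary amine. The choice of the 154 did not use the direction of their difference, although it left out transcripts low with either. Pendimethalin had the higher mean in 71 of the 154. In the comparison of pendimethalin with trifluralin, 1 of the 154 was called higher (0.649%) and 0 lower, against 0.0684% and 0.342% of all transcripts tested. An unadjusted edgeR p was under 0.05 for 9 of the 154 and for 1259 of all 17555 transcripts tested. DESeq2 called 2 of the 154. The median log2 difference was -0.02 (-1.20 to 2.54), with a 95% interval that extended by a median of 0.55 each way. For 103 (66.9%) the interval stayed inside a 2-fold rise and a 2-fold fall, against 38.4% of all transcripts with an interval. For the other 51 a 2-fold difference was not excluded. The intervals of all transcripts extended by a median of 0.94 each way. The choice set limits on the level with both dinitroanilines, so the shares are not read as agreement.

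That 1 call was TRINITY_DN8531_c0_g1_i1_2 (2665 bases). It stood at 54.0, 80.9 and 64.0 FPKM with pendimethalin and 15.3, 10.7 and 8.14 with trifluralin, against 15.2, 6.49 and 19.2 in control, 2.21, 3.19 and 1.96 with S-metolachlor and 2.29, 3.31 and 3.38 with acetochlor. Pendimethalin lay above all other libraries and the chloroacetanilides below all others, with trifluralin at the control level. For pendimethalin against trifluralin the log2 difference was 2.54 (SE 0.41, edgeR adjusted p = 0.0145). The call was lost without trifluralin replicate 2, trifluralin replicate 3 or pendimethalin replicate 2 and with only these groups in the fit (5.03e-07 to 0.212). Against control, pendimethalin gave 2.04 (SE 0.40, edgeR adjusted p = 0.00754; 0.0749 with only those groups in the fit, the highest of a range from 3.91e-05), S-metolachlor -2.74 (0.42, 0.000245) and acetochlor -2.34 (0.41, 0.00444).

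S-metolachlor and acetochlor are chloroacetylated anilines with different alkoxyalkyl groups on the nitrogen. Acetochlor had the higher mean in 115 of the 154 transcripts. In the comparison of acetochlor with S-metolachlor 51 were called higher (33.1%) and 2 lower (1.30%), against 17.9% and 19.5% of all transcripts tested. The choice held both chloroacetanilides below the dinitroanilines and within 4-fold of each other. Nothing is therefore read from differences between the 154 and the whole table. The log2 difference had a median of 0.52 (-1.76 to 1.96) and was above 0 in 125, where the median over all transcripts was -0.03. The rises were spread over the sets, with 11 of the 45 transcripts with control below, 20 of the 50 with control above, 19 of the 58 overlapping and the single transcript between. The total of 53 calls was 32 without S-metolachlor replicate 1. The 95% interval of the log2 difference stayed inside a 2-fold rise and a 2-fold fall for 59 (38.3%). For the rest a 2-fold difference was not excluded. Of all transcripts with an interval 22.8% stayed inside. Their intervals extended by a median of 0.96 each way, against 0.55 for the 154. The choice set limits on level and on the fold between these means, so the shares are not read as agreement.

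The overlapping set held 2 of the largest rises of acetochlor over S-metolachlor. TRINITY_DN6894_c0_g2_i1_4 (2093 bases) was at 4.30, 5.30 and 5.83 FPKM with S-metolachlor and 14.7, 16.9 and 18.7 with acetochlor, with 27.7, 26.8 and 13.9 in control, 25.4, 38.7 and 34.5 with trifluralin and 43.6, 40.4 and 20.4 with pendimethalin. The acetochlor libraries overlapped control through control replicate 3, and the S-metolachlor libraries were below everything else. The log2 difference was 1.82 (SE 0.29, edgeR adjusted p = 0.000518). S-metolachlor against control gave -2.34 (0.29, edgeR adjusted p = 5.94e-05).

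TRINITY_DN3737_c0_g1_i1_4 (1623 bases) also had S-metolachlor lowest and acetochlor next. S-metolachlor had 29.8, 24.0 and 23.3 FPKM, acetochlor 56.1, 109 and 73.5, control 169, 106 and 96.9, trifluralin 115, 157 and 245 and pendimethalin 228, 157 and 128. Acetochlor against S-metolachlor gave 1.76 (SE 0.33, edgeR adjusted p = 0.00151), and S-metolachlor against control -2.50 (0.34, edgeR adjusted p = 0.000107).

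The 154 transcripts had a median length of 2043.5 bases (quartiles 1432 to 2863.75). It was 1869 bases (1172 to 2812.5) for the 8067 transcripts with a smaller dinitroaniline mean of at least 5 FPKM. The 100 transcripts with the highest control mean were left out of these too. Each name ends in a digit from 1 to 5 that the sources used here do not explain. The digit 4 ended 49 of the names (31.8%), against 20.2% in those 8067, and the digit 5 ended 22 (14.3%), against 20.1%. The digits 1, 2 and 3 ended 24.7%, 11.7% and 17.5%, against 23.0%, 15.2% and 21.5%. These shares are descriptions, and what part the digit plays in the levels was not tested.

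Without isoform number and last digit the 154 names give 153 Trinity gene names, which the assembler gives to groups of related contigs. Since the last digit is unexplained, transcripts that share such a name may not belong to the same gene. Of the 154, 88 share such a name with other transcripts in the table, 114 in all. Of these, 101 had a smaller dinitroaniline mean or a larger chloroacetanilide mean of at least 1 FPKM. Both dinitroaniline means were above both chloroacetanilide means in 26 of the 101 (25.7%), and the reverse held in 18. Of the 17623 transcripts outside the 154 with such a mean, 20.0% had both dinitroaniline means above. The only members to share a Trinity gene name were TRINITY_DN5879_c0_g1_i2_3 and TRINITY_DN5879_c0_g1_i2_4, named here after their values were seen. The first (2028 bases) was at 27.8, 51.1 and 19.8 FPKM in control, 88.1, 107 and 136 with trifluralin, 97.5, 67.7 and 105.6 with pendimethalin, 28.2, 31.1 and 33.2 with S-metolachlor and 52.2, 38.5 and 46.6 with acetochlor. The second (3143 bases) was at 49.3, 27.8 and 26.9 FPKM in control, 38.3, 38.7 and 37.1 with trifluralin, 35.8, 25.3 and 35.9 with pendimethalin, 12.3, 13.7 and 12.6 with S-metolachlor and 12.7, 13.4 and 20.2 with acetochlor. Control therefore lay below the dinitroanilines in the first and above the chloroacetanilides in the second. Their names differ in the last digit alone, but their lengths differ, so they are different contigs and may not belong to the same gene.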

How the data were processed

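RNA from mycelium was extracted with TRIzol and made into libraries with the VAHTS Universal V6 kit, per the labels' protocols. The authors deposited expected counts and FPKM for 20602 transcripts. Trimmomatic, Bowtie2, DESeq and the mouse build mm10 are named, per the submitters' processing notes. The row names have the form of a Trinity assembly, and the sources used here give no assembler or counter. Counts may have been divided among isoforms, near-identical copies or overlapping transcripts, so single transcripts are uncertain in that respect, and strand handling is not stated.

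FPKM chose the transcripts. The members, lists and sets were chosen with earlier results of these data known. The design assumed counts, and the expected counts were rounded to whole numbers for edgeR 4.0.16 in R 4.3.3 (filterByExpr with minimum count 10 and minimum total 15, TMM). This kept 17555 transcripts and removed 3047. All 15 libraries entered 1 fit with 1 mean per group. P-values were adjusted by Benjamini-Hochberg over all transcripts, separately in each of 6 comparisons, and called under 0.05. The contrast of the herbicide classes was not tested, since it chose the members. The SE was derived from the F statistic, as the size of the log2 fold change over the root of F. Scripts were tested on simulated data. Alternatives used DESeq2 1.42.0 and limma 3.58.1 on log2(FPKM + 1) and log2(FPKM + 0.1).

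Named transcripts are, per comparison, up to 2 rises and 2 falls with the largest log2 fold change among members called, with no overlap in FPKM and 10 CPM or more on average in the higher group. Added to these are the 2 with the highest ratio in the sets with control below, above or between, and the 2 with the highest dinitroaniline mean. Where the count divided by FPKM was compared over transcripts, 8228 of them lay within 0.00346 of whole multiples of 1 unit, and this multiple was taken as the length in bases.

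The labels number the replicates in each group. Deviations of same-numbered libraries from their group means correlated at 0.17, 0.20 and 0.54 for pendimethalin and control, over 0.1 in every pair. Only for replicate 3 was the same number the best match. For trifluralin and control the correlations were -0.04, -0.26 and -0.45. The labels give the number alone, so pairing is not established. With the replicate number as a block, pendimethalin against control called 32 members, against 33 without it.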

Additional observations from a re-analysis of the deposited data

How the results depend on the processing

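Between 120 and 316 transcripts met the conditions when single libraries were left out, and 56 did at a ratio of 2. Without both pendimethalin replicate 3 and control replicate 3, an alternative chosen after seeing the data, 316 did. Other limits and TMM division gave 122 to 184. With single libraries left out, control was below in 39 to 69, above in 47 to 87, between in 1 to 7 and overlapping in 21 to 58. With those 2 left out together it was below in 43, above in 74, between in 20 and overlapping in 17. By means, with 1.5-fold as nearness to a class, the sets held 57, 53, 9 and 35. TMM division put control between the classes in 2.

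Calls among the 154 numbered 16 to 45 for trifluralin, 19 to 44 for pendimethalin, 91 to 113 for S-metolachlor, 25 to 51 for acetochlor, 0 to 1 for pendimethalin against trifluralin and 32 to 52 for acetochlor against S-metolachlor when single libraries were left out. With only the compared groups in the fit they were 19, 9, 110, 29, 0 and 72. DESeq2 called 2 for pendimethalin against trifluralin. Limma called 32 on log2(FPKM + 1) and 34 on log2(FPKM + 0.1) for acetochlor against S-metolachlor. Some of these fits had fewer libraries, and the causes of the changes were not tested. Whole-table counts are not given for the alternatives, so no change is read as particular to the 154. Of 637 values of the 18 named transcripts under an alternative, 564 kept the call and direction, 73 were no longer called and 0 reversed.

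With the replicate block the calls numbered 27, 32, 101, 44, 1 and 48 in the same order, against 37, 33, 106, 49, 1 and 53, and it moved no count by over 1.5 times. Outside pendimethalin and control, same-numbered libraries did not all correlate, and in no comparison did every sample correlate best with its own number. All values rest on 3 libraries a group, and low FPKM on few fragments.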
